A study of Drosophila melanogaster with 9 samples.

Results

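The respiratory chain passes electrons from NADH and succinate to oxygen through complexes I to IV of the inner mitochondrial membrane, and complex V, the ATP synthase, uses the proton gradient that this builds up. Most subunits are encoded in the nucleus, made in the cytosol and imported, whereas a core set is encoded by the mitochondrial DNA and transcribed inside the organelle as long RNAs that are cut into mRNAs and ribosomal RNAs. Complex II, which also belongs to the citric acid cycle, is built from nuclear genes alone.

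The mRNAs of these subunits were followed in S2R+ cells, an adherent Drosophila line of late embryonic origin with features of blood cells, after depletion of Hrb98DE, an RNA-binding protein of the hnRNP family. Members were chosen by symbol: names that begin with ND-, COX, UQCR-, ATPsyn, mt:Co, mt:ND, mt:Cyt or mt:ATP, together with SdhA to SdhD, RFeSP and Cyt-c1, at a mean above 1 CPM (the reads of a gene scaled to a fixed library total) over the 9 libraries. By name 99 genes qualified. Of these, 76 passed the expression limit, out of 7406 genes tested and 17559 gene identifiers counted. The members comprised 63 nuclear genes (32 of complex I, 4 of complex II, 8 of complex III, 8 of complex IV and 11 of complex V) and 13 mitochondrial genes (7 of complex I, 1 of complex III, 3 of complex IV and 2 of complex V). The cytochrome c gene Cyt-c-p is not analysed here, because its identifier was not matched.

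KD1 and KD2 are cells that took up 1 of 2 different dsRNAs directed at Hrb98DE, and lacZ cells were given a dsRNA against a bacterial gene that flies lack. All 9 libraries came from S2R+ cells (strain Oregon R) that were kept at 25 °C, took up dsRNA in repeated rounds of serum starvation for 6 h and were collected 5 days after the start of treatment. Each group held 3 libraries, which were KD1 replicates 1, 3 and 4, KD2 replicates 1, 2 and 4, and lacZ replicates 1, 2 and 3, and values of single libraries are given in that order. The study describes 4 replicates for each dsRNA but gives 3 for its test of mRNA, and it is not stated how the 3 were chosen. The model is 1 cell line. The study calls its replicates biological, but the labels do not say how the cultures were kept apart, so p-values measure only the spread between these libraries, which may be technical.

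Libraries held between 13040608 and 15931035 assigned reads. Relative to lacZ, Hrb98DE mRNA was left at 14.1% in KD1 and 15.5% in KD2, and its paralog Hrb87F at 41.7% in KD1 and 23.3% in KD2. Of 9 markers of blood cells, 8 were detected above 1 CPM, and 4 were higher and 0 lower in each knockdown (DESeq2, adjusted p under 0.05). This stands beside 9.71% of all genes higher and 11.5% lower in KD1, and 11.3% higher and 12.3% lower in KD2. The summed level of the list was 1537 to 1592 CPM in KD1, 1573 to 1660 CPM in KD2 and 1511 to 1549 CPM in lacZ. NimC1, a phagocytic receptor of plasmatocytes, averaged only 0.179 CPM. Of 11 markers of other cell types, bam, aub and elav were above 1 CPM and none of the 3 passed the test, while those of muscle (Mhc, up and Mlc2) and fat body (Lsp2, Fbp1 and Fbp2) stayed under it. No library stood apart in depth. However, KD1 replicate 1, KD2 replicate 2 and lacZ replicates 1 and 2 differed from their groups in the reads of mitochondrial genes. Values without them are given beside those results.

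Respiratory chain mRNAs were abundant in all groups. Levels per unit of exon length are given as TPM, that is reads divided by exon length and then scaled to a fixed total. The 63 nuclear members had a median of 188 TPM in KD1, 186 TPM in KD2 and 193 TPM in lacZ, against 37.5, 38.2 and 38.6 TPM for all genes tested in KD1, KD2 and lacZ. Nuclear subunits of complex IV (median 371 TPM in KD1, 353 TPM in KD2 and 386 TPM in lacZ) and complex V (356 TPM in KD1, 347 TPM in KD2 and 367 TPM in lacZ) lay above those of complex I (138 TPM in KD1, 137 TPM in KD2 and 139 TPM in lacZ) and complex II (140 TPM in KD1, 134 TPM in KD2 and 137 TPM in lacZ). Among nuclear genes the highest was ATPsyngamma, which encodes the central stalk of the ATP synthase, at 1637 ± 18.1 TPM in KD1, 1567 ± 9.19 TPM in KD2 and 1604 ± 33.1 TPM in lacZ (SD, n = 3 each).

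Levels of the mitochondrial members spanned a far wider range than those of the nuclear members. The 3 catalytic core subunits of cytochrome c oxidase were the most abundant, with mt:CoI at 4356 ± 169 TPM in KD1, 4635 ± 640 TPM in KD2 and 4653 ± 851 TPM in lacZ (SD, n = 3 each). The lowest was mt:ND6, a membrane subunit of complex I, at 42.0 ± 15.6 TPM in KD1, 26.2 ± 7.65 TPM in KD2 and 38.5 ± 9.41 TPM in lacZ (SD, n = 3 each). Mitochondrial genes ranked in the order of complexes IV, III, V and I in each group, and nuclear genes in the order IV, V and III, with complexes I and II close together below.

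**Figure D1:**
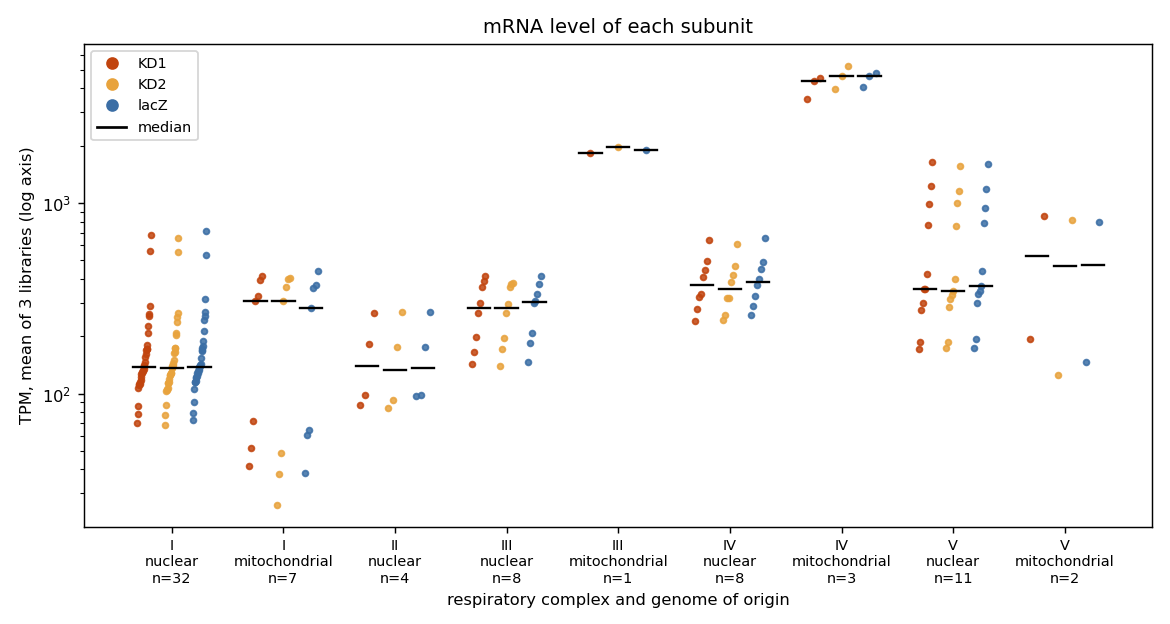
mRNA level in TPM (log axis) of each of the 76 respiratory chain genes, by complex and genome of origin, with KD1, KD2 and lacZ side by side. Each point is the mean of 3 libraries for 1 gene and each black line the median of the genes. Mitochondrial complex IV genes lie highest (median 4356 TPM in KD1, 4635 TPM in KD2 and 4653 TPM in lacZ), and the medians of KD1, KD2 and lacZ lie close together within each class.

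Next, the question was whether these mRNAs changed after treatment with dsRNA against Hrb98DE. Because Hrb87F mRNA was lower in both knockdowns too, the loss of Hrb98DE and that of Hrb87F cannot be told apart here. In KD1 no member had an adjusted p under 0.05 (DESeq2), while 21.2% of all genes tested did. The threshold used below, an adjusted p under 0.05 together with a fold change above 1.3, was passed by 0 members in KD1 and by 7.37% of all genes. Unadjusted p was under 0.05 for 10 of 76 members in DESeq2 (31.7% of all genes) and for 14 in the edgeR quasi-likelihood test, which also gave 0 members at an adjusted p under 0.05. In KD2, 7 of 76 members had an adjusted p under 0.05 in DESeq2, 1 of them higher and 6 lower, while 23.6% of all genes did (11.3% higher and 12.3% lower). Past the threshold in KD2 was mt:ND2 alone, that is 1 of 76 members against 8.13% of all genes. Both comparisons share the lacZ libraries.

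Nuclear members are well expressed, so the background was also taken over the 4621 genes with a mean CPM within their range. Of these, 24.1% had an adjusted p under 0.05 in KD1 and 27.0% in KD2, and 4.46% and 5.11% were past the threshold in KD1 and in KD2. None of the 63 nuclear members was past the threshold in either comparison. Their log2 fold changes lay between -0.18 and 0.17 in KD1 and between -0.23 and 0.14 in KD2, so that no nuclear mRNA was more than 14.6% lower or 12.7% higher than in lacZ in either comparison.

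The width of the intervals shows how small a change could have been seen. The 95% interval of the fold change lay wholly within 1.3-fold either way for 63 of 63 nuclear members in KD1 and 62 of 63 in KD2, whereas this held for 66.8% of all genes in KD1 and 65.8% in KD2, and within the same CPM range for 84.5% in KD1 and 83.4% in KD2. The exception in KD2 was ND-B12, a small membrane-arm subunit of complex I, whose interval reached -0.38. For the mitochondrial members the interval lay within 1.3-fold for 4 of 13 in each comparison and reached beyond it for the other 9.

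**Figure D2:**
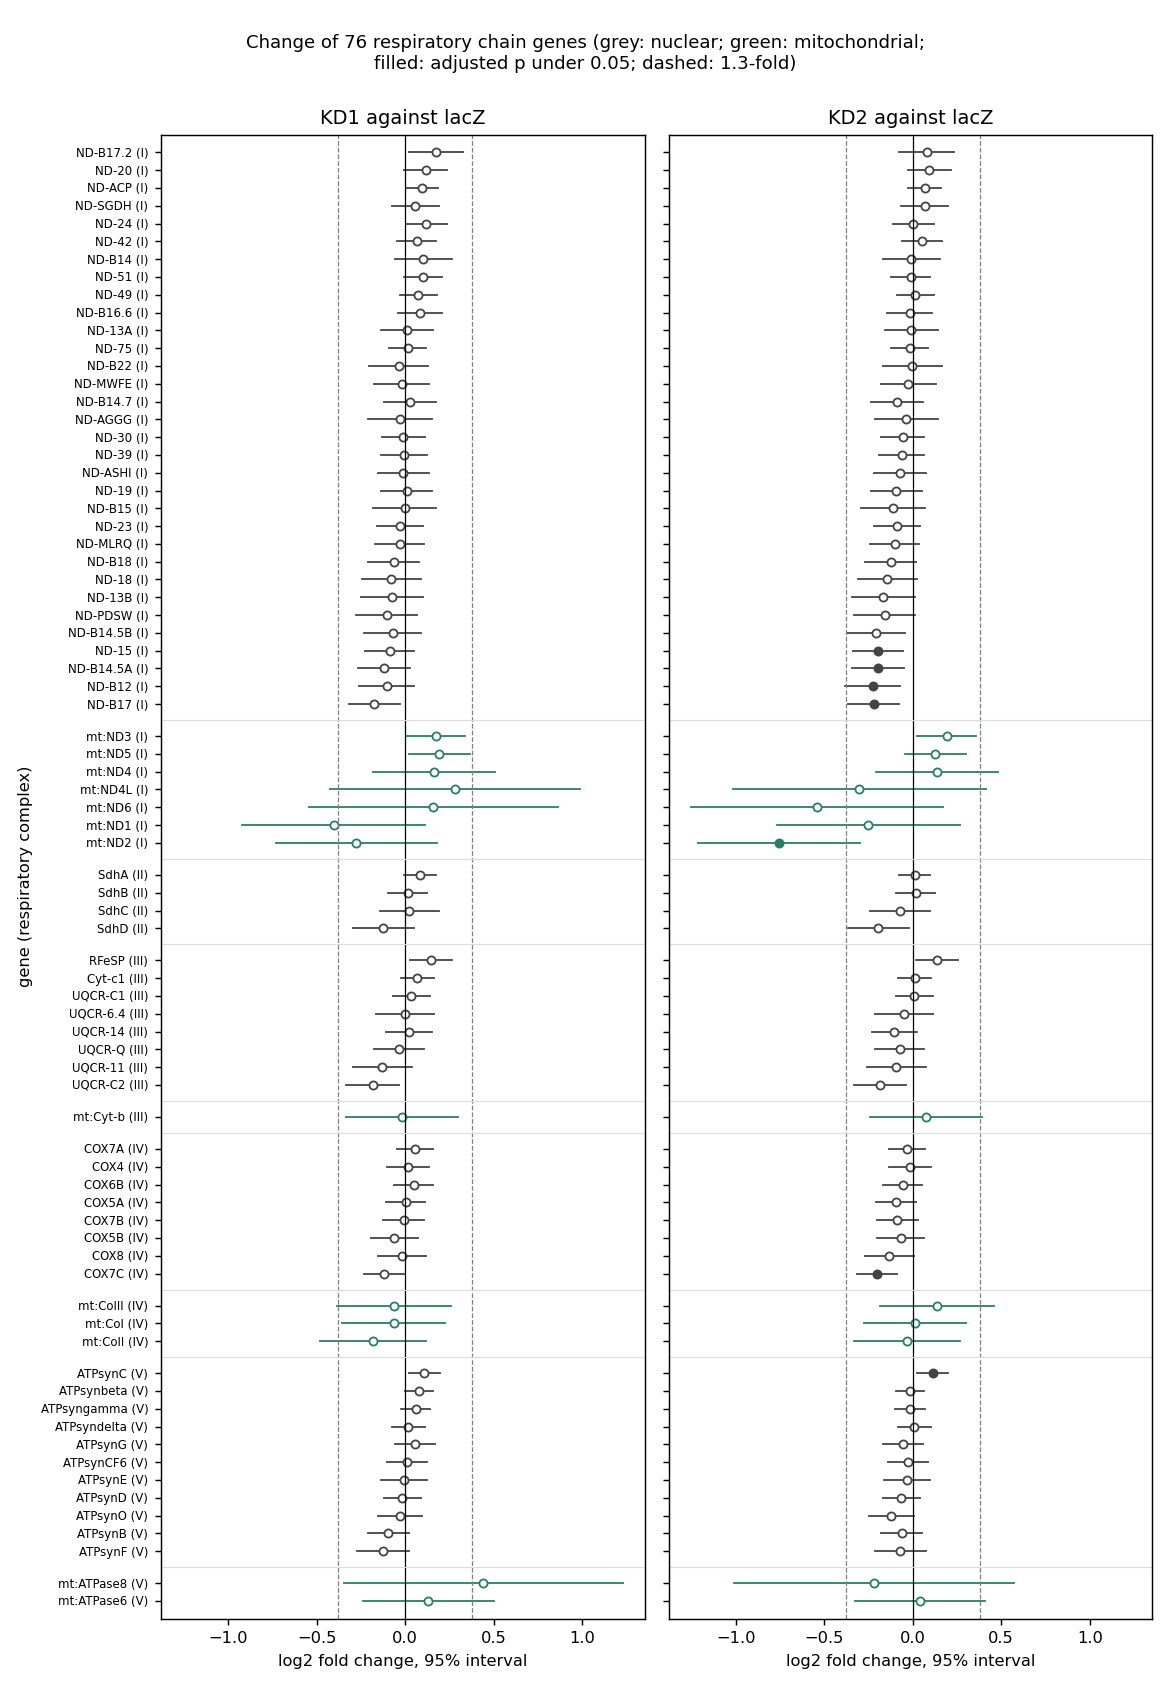
Log2 fold change with its 95% interval for each of the 76 genes, KD1 against lacZ on the left and KD2 against lacZ on the right, grouped by complex and genome and ordered by the mean of both changes. Filled points have a DESeq2 adjusted p under 0.05 (0 in KD1 and 7 in KD2) and dashed lines mark 1.3-fold; nuclear genes (grey) cluster around 0 with short intervals, and mitochondrial genes (green) scatter with long ones.

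By genome of origin, the median log2 fold change of the nuclear members was -0.00 in KD1 and -0.06 in KD2, beside 0.00 for all genes in both. In KD2, 49 of 63 nuclear members lay below 0, beside 49.2% of all genes, and in KD1 32 of 63 did, beside 49.9% of all genes. The 8 nuclear subunits of complex IV all lay below 0 in KD2 (median -0.08), as did 25 of 32 of complex I (median -0.06), 5 of 8 of complex III (median -0.06), 9 of 11 of complex V (median -0.03) and 2 of 4 of complex II (median -0.03). In KD1 the medians by complex lay between -0.01 for complex I and 0.02 for complex II. The offset in KD2 was of the size of the differences between libraries. Relative to the lacZ mean, the median nuclear member stood at -0.11, 0.01 and -0.04 in KD2 replicates 1, 2 and 4, against 0.06, -0.03 and -0.02 in the lacZ replicates. KD2 replicate 1 was the lowest library for 39 of the 63 nuclear members and lacZ replicate 1 the highest for 30. Without KD2 replicate 1 the median was -0.02, and without lacZ replicate 1 it was -0.01, whereas without KD2 replicate 2 it was -0.09 and without lacZ replicate 2 it was -0.08.

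KD1 and KD2 were also set against each other. Hrb87F mRNA was itself higher in KD1 than in KD2, by 0.84 ± 0.08 (SE) on the log2 scale, while Hrb98DE differed by -0.14 ± 0.07 (SE). No member differed at an adjusted p under 0.05 in DESeq2, beside 0.162% of all genes, and independent filtering left 34 of the 76 without an adjusted p. Unadjusted p was under 0.05 for 3 members in DESeq2 (5.18% of all genes) and 10 in edgeR, with 0 at an adjusted p under 0.05 in edgeR. The nuclear members had a median log2 difference of 0.06 (KD1 minus KD2), and 56 of 63 were higher in KD1, beside 51.2% of all genes. All 63 had a 95% interval within 1.3-fold either way, beside 80.7% of all genes. KD2 replicate 1 enters here too, and without it the median was 0.03.

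Across both knockdowns averaged, 8 members had an adjusted p under 0.05 in DESeq2 (27.8% of all genes did, 13.2% higher and 14.6% lower), of which ATPsynC, RFeSP and mt:ND3 were higher and ND-B17, ND-B14.5A, UQCR-C2, COX7C and mt:ND2 lower than in lacZ. Of these, mt:ND2 was past the threshold, where 8.18% of all genes were, but it no longer passed the test without KD1 replicate 3, KD2 replicate 2 or any of the lacZ replicates. For 4 genes all 6 knockdown libraries lay on the same side of all lacZ libraries, namely ND-B17, UQCR-C2, COX7C and ATPsynC, 3 below and 1 above, while 27.4% of all genes showed such a separation (14.1% below and 13.2% above). KD1 alone did not overlap lacZ for 14 members, 10 above and 4 below (39.5% of all genes, 19.2% above and 20.2% below). KD2 alone did not overlap it for 10 members, 2 above and 8 below (38.1% of all genes, 18.6% above and 19.5% below).

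Complex I takes electrons from NADH and is the largest of the complexes. Its nuclear member with the lowest change was ND-B17 (FBgn0001989, chromosome 2L, 15749319 to 15751078, minus strand, BDGP6), a single-span subunit of the membrane arm. ND-B17 had normalised read counts of 862.5, 871 and 860 in KD1 and 755, 917 and 837 in KD2, against 970, 993 and 961 in lacZ. All 6 knockdown libraries were below the lacZ libraries. Its log2 fold change was -0.17 ± 0.07 (SE, adjusted p 0.0816) in KD1 and -0.22 ± 0.07 (SE, adjusted p 0.0169) in KD2 (DESeq2). The KD2 call was kept in 10 of 17 alternative analyses. It was lost without KD2 replicate 1 (adjusted p 0.213), KD2 replicate 4 (0.0773) or any lacZ replicate (0.056 to 0.0726; DESeq2).

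A further 3 accessory subunits of complex I were lower in KD2, and these were singled out after their values had been seen. ND-B12 counts were 1476, 1475 and 1316 in KD1 and 1247, 1365 and 1306 in KD2, against 1660, 1575 and 1348 in lacZ, and its groups overlapped. Its log2 fold change was -0.10 ± 0.08 (SE, adjusted p 0.39) in KD1 and -0.23 ± 0.08 (SE, adjusted p 0.0223) in KD2 (DESeq2). ND-B14.5A fell by 0.20 on the log2 scale in KD2 (adjusted p 0.0356) and ND-15, a subunit at the edge of the membrane arm, fell by 0.20 (adjusted p 0.029; DESeq2). For both genes all KD2 libraries lay below all lacZ libraries, while KD1 overlapped lacZ. Without KD2 replicate 1 or without lacZ replicate 1 none of the 3 passed the test in KD2 (nor ND-B12 and ND-15 without KD2 replicate 4, ND-B12 and ND-B14.5A without lacZ replicate 2, ND-B14.5A without KD1 replicate 4 and ND-15 without lacZ replicate 3), with adjusted p-values of 0.128, 0.293 and 0.176 without KD2 replicate 1 for ND-B12, ND-B14.5A and ND-15 (DESeq2).

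The highest change among nuclear subunits of complex I belonged to ND-B17.2, a subunit of the peripheral arm. ND-B17.2 had 772, 795 and 704 normalised reads in KD1 and 692, 691 and 746 in KD2, against 690, 691 and 634 in lacZ. KD1 lay above lacZ and KD2 overlapped it, with adjusted p-values of 0.0984 and 0.53 for KD1 and KD2 (DESeq2). The acyl carrier protein ND-ACP, the nuclear complex I member with the most reads, which also serves mitochondrial fatty acid synthesis, had a log2 fold change of 0.09 ± 0.05 (SE) in KD1 and 0.07 ± 0.05 (SE) in KD2, with adjusted p-values of 0.144 and 0.325 in KD1 and KD2 (DESeq2).

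Complex II, succinate dehydrogenase, did not pass the test for any of its 4 subunits. Its flavoprotein SdhA, which oxidises succinate, had 4184, 4002 and 4126 normalised reads in KD1 and 3788, 3955 and 3938 in KD2, against 3941, 3852 and 3808 in lacZ. The iron-sulfur subunit SdhB had a log2 fold change of 0.01 ± 0.06 (SE) in KD1 and 0.02 ± 0.06 (SE) in KD2. Of the membrane anchors, SdhC had 0.02 ± 0.09 (SE) in KD1 and -0.07 ± 0.09 (SE) in KD2, and SdhD had -0.12 ± 0.09 (SE) in KD1 and -0.20 ± 0.09 (SE) in KD2. The adjusted p of SdhD in KD2 was 0.0942 (DESeq2) and its groups overlapped. SdhD passed in KD2 in 3 of 17 alternative analyses, with total-read scaling (-0.23, adjusted p 0.0464), without KD2 replicate 2 (-0.25, adjusted p 0.039) and without lacZ replicate 2 (-0.26, adjusted p 0.0337; DESeq2).

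Complex III, the cytochrome bc1 complex, held members at both ends. UQCR-C2 (FBgn0250814, chromosome 3L, 16584124 to 16586111, plus strand), a core protein on the matrix side, had 3542, 3616 and 3729 normalised reads in KD1 and 3164, 3851 and 3852 in KD2, against 4451, 3892 and 4022 in lacZ. Every knockdown library was below every lacZ library. Its log2 fold change was -0.18 ± 0.08 (SE, adjusted p 0.0651) in KD1, -0.19 ± 0.08 (SE, adjusted p 0.0547) in KD2 and -0.19 ± 0.07 (SE, adjusted p 0.0202) with both averaged (DESeq2). Without lacZ replicate 1, its highest library, it was -0.12 in KD1 and -0.13 in KD2, and the call on the average was lost, as it was without KD1 replicate 1. With reads scaled by library totals, UQCR-C2 passed the adjusted p in each comparison.

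RFeSP, the Rieske iron-sulfur protein that hands electrons to cytochrome c1, changed the other way. RFeSP had 3430, 3175 and 3297 normalised reads in KD1 and 3083, 3366 and 3394 in KD2, against 3123, 2818 and 3011 in lacZ. KD1 lay above lacZ, and KD2 overlapped it through replicate 1. Averaged over both knockdowns, RFeSP rose by 0.14 ± 0.05 on the log2 scale (SE, adjusted p 0.0263, DESeq2). That call was kept in 8 of 16 alternative analyses and lost without KD1 replicate 1 or 4, KD2 replicate 4 or lacZ replicate 2 or 3. Cyt-c1, the heme protein of the complex and its most abundant nuclear member by reads, had a log2 fold change of 0.07 ± 0.05 (SE) in KD1 and 0.01 ± 0.05 (SE) in KD2, neither past the test.

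Complex IV, cytochrome c oxidase, reduces oxygen to water. COX7C (FBgn0040773, chromosome 2R, 10048353 to 10050066, plus strand), a small single-span subunit, had 2459, 2316 and 2192 normalised reads in KD1 and 2116, 2202 and 2269 in KD2, against 2586, 2497 and 2482 in lacZ. All 6 knockdown libraries lay below the lacZ libraries, the closest being KD1 replicate 1. COX7C fell by 0.20 ± 0.06 (SE, adjusted p 0.00402) on the log2 scale in KD2, while in KD1 its log2 fold change was -0.12 ± 0.06 (SE, adjusted p 0.134; DESeq2). The KD2 call was kept in 13 of 17 alternative analyses and was lost without KD2 replicate 1 (adjusted p 0.0585) or lacZ replicate 1 (0.057; DESeq2).

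No other nuclear subunit of complex IV passed the test in KD1 or KD2, although all 8 lay below 0 in KD2 (median -0.08). COX4, the nuclear complex IV subunit with the most reads, had a log2 fold change of 0.02 ± 0.06 (SE) in KD1 and -0.02 ± 0.06 (SE) in KD2. COX7A, with the highest averaged change of the 8, had 0.05 ± 0.05 (SE) in KD1 and -0.03 ± 0.05 (SE) in KD2.

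Complex V makes ATP. ATPsynC (FBgn0039830, chromosome 3R, 31216145 to 31219630, minus strand) encodes the subunit of the rotor ring that carries protons through the membrane. ATPsynC had 14890, 15230 and 15200 normalised reads in KD1 and 14650, 15720 and 15030 in KD2, against 14440, 13670 and 13920 in lacZ. The knockdown libraries all lay above the lacZ libraries, by a narrow margin. ATPsynC had a log2 fold change of 0.11 ± 0.04 (SE) in both comparisons (adjusted p 0.0588 in KD1 and 0.048 in KD2, DESeq2). The KD2 call was kept in 3 of 17 alternative analyses and was lost whichever library was left out.

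The catalytic subunit ATPsynbeta, the nuclear member with the most reads, had 23740, 24390 and 23280 normalised reads in KD1 and 22040, 23000 and 21870 in KD2, against 22860, 22560 and 22150 in lacZ. KD1 lay above lacZ, KD2 overlapped it, and the log2 fold changes were 0.08 ± 0.04 (SE) in KD1 and -0.01 ± 0.04 (SE) in KD2. ATPsynF, a subunit of the membrane part, was lowest of the 11 with both knockdowns averaged, with -0.12 ± 0.07 (SE) in KD1 and -0.07 ± 0.07 (SE) in KD2.

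**Figure D3:**
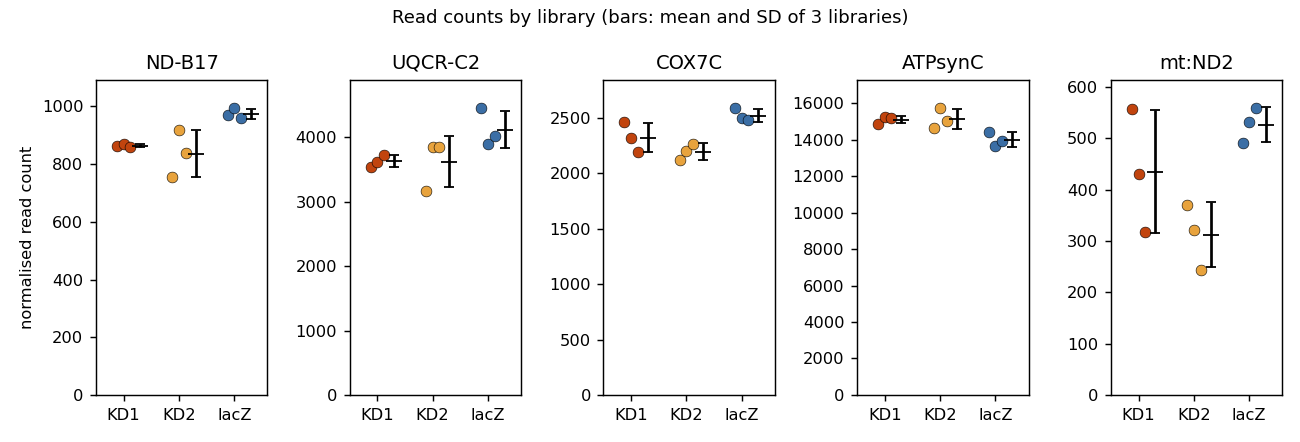
Normalised read counts of ND-B17, UQCR-C2, COX7C, ATPsynC and mt:ND2 in each library, with KD1, KD2 and lacZ from left to right; each point is 1 library and the bars give the mean and SD of 3 libraries. The knockdown libraries lie below all lacZ libraries for the first 3 genes and above them for ATPsynC, whereas for mt:ND2 KD1 replicate 1 (557 reads) is level with lacZ (491 to 558 reads).

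The mitochondrial members were examined gene by gene. Their spread between replicates was wide: the SD of log2 counts within groups had a median of 0.23, against 0.07 for the nuclear members and 0.08 for all genes tested. The median log2 fold change over the 13 genes was 0.13 in KD1 and 0.01 in KD2. Leaving out KD1 replicate 1 brought the KD1 value to -0.03, and leaving out lacZ replicate 2 brought it to 0.02. KD1 replicate 1 was the highest library for 7 of the 13 genes, and lacZ replicate 2 was the lowest for 7. Without KD1 replicate 4 the KD1 median was 0.24. The KD2 median was 0.15 without lacZ replicate 1, -0.11 without lacZ replicate 2 and -0.10 without KD2 replicate 2.

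The member past the threshold was mt:ND2 (FBgn0013680, mitochondrial genome, 240 to 1263, plus strand), which encodes a proton-pumping subunit of complex I. mt:ND2 had 557, 430 and 317 normalised reads in KD1 and 370, 322 and 244 in KD2, against 491, 531 and 558 in lacZ. KD2 lay below lacZ in every library, whereas KD1 overlapped lacZ through replicate 1. mt:ND2 fell by 0.75 ± 0.23 (SE) on the log2 scale in KD2 (adjusted p 0.00839 in DESeq2 and 0.00398 in edgeR), and its log2 fold change in KD1 was -0.28 ± 0.23 (SE, adjusted p 0.446, DESeq2). The KD2 call was kept in 16 of 17 alternative analyses and lost without lacZ replicate 3 (adjusted p 0.078). Without KD1 replicate 1 the KD1 value was -0.49 with an adjusted p of 0.0121 (DESeq2). KD1 and KD2 differed by 0.48 ± 0.23 (SE), for which independent filtering gave no adjusted p. Without KD1 replicate 4 this difference was 0.66 with an adjusted p of 0.0103, and that of mt:ND6 was 0.94 with an adjusted p of 0.0267 (DESeq2).

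Among the other mitochondrial subunits of complex I, mt:ND1, mt:ND4L and mt:ND6 also had log2 fold changes below 0 in KD2 (-0.25, -0.30 and -0.54) and mt:ND3, mt:ND4 and mt:ND5 above 0, with none past the test in KD2. Of these, mt:ND6 passed in KD2 in 3 of 17 alternative analyses, with an adjusted p of 0.0416 when the compared groups alone were fitted (DESeq2). mt:ND1 had 2395, 2748 and 2335 normalised reads in KD1 and 2219, 3493 and 2608 in KD2, against 4402, 2511 and 2987 in lacZ, and lacZ replicate 1 stood above all other libraries. On the log2 scale mt:ND1 stood at -0.40 in KD1 and -0.25 in KD2, but at -0.14 in KD1 and 0.01 in KD2 without lacZ replicate 1. mt:ND3 had 1278, 1119 and 1025 in KD1 and 1133, 1254 and 1079 in KD2, against 1062, 979 and 995 in lacZ. KD2 lay above lacZ for mt:ND3, KD1 overlapped it, and with both averaged mt:ND3 rose by 0.18 ± 0.07 (SE, adjusted p 0.0486, DESeq2). That call was kept in 5 of 16 alternative analyses and lost whichever library was left out, except KD1 replicate 4 and KD2 replicate 4. For mt:ND4 and mt:ND5 the log2 fold changes were 0.16 ± 0.18 (SE) and 0.19 ± 0.09 (SE) in KD1, and 0.14 ± 0.18 (SE) and 0.13 ± 0.09 (SE) in KD2, with none past the test. Without KD1 replicate 1 they were 0.01 and 0.07 in KD1. mt:ND5 passed it in KD1 without lacZ replicate 1 (0.26, adjusted p 0.0365) and without KD1 replicate 4 (0.28, adjusted p 0.00843; DESeq2).

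The 3 low-count genes mt:ND4L, mt:ND6 and mt:ATPase8 gave the widest intervals. mt:ATPase8 had 394, 235 and 143 normalised reads in KD1 and 213, 143 and 132.5 in KD2, against 143.5, 216.5 and 209 in lacZ. mt:ND6 had 252, 174 and 115 in KD1 and 145, 100 and 87.3 in KD2, against 121, 200.4 and 162.5 in lacZ. mt:ND4L had 254, 156 and 103 in KD1 and 148, 106 and 88.3 in KD2, against 122, 147.5 and 153 in lacZ. For each of them KD1 replicate 1 was the highest of the 9 libraries and KD2 replicate 4 the lowest, and the groups overlapped. Without KD1 replicate 1 the KD1 log2 fold change of mt:ATPase8 was -0.00, against 0.44 with all libraries. That of mt:ND6 was -0.16, against 0.16, and that of mt:ND4L was -0.12, against 0.28.

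The abundant genes behaved differently. mt:CoI had 54880, 57040 and 51890 normalised reads in KD1 and 49800, 66990 and 56090 in KD2, against 67350, 46340 and 57650 in lacZ. Its log2 fold change was -0.06 ± 0.15 (SE) in KD1 and 0.01 ± 0.15 (SE) in KD2. mt:CoII (-0.18 ± 0.15 in KD1 and -0.03 ± 0.15 in KD2), mt:CoIII (-0.06 ± 0.16 in KD1 and 0.14 ± 0.16 in KD2) and mt:Cyt-b (-0.02 ± 0.16 in KD1 and 0.07 ± 0.16 in KD2; SE in each case) shared the pattern across libraries, with lacZ replicate 1 and KD2 replicate 2 highest. mt:ATPase6, the proton channel of complex V, had 0.13 ± 0.19 (SE) in KD1 and 0.04 ± 0.19 (SE) in KD2. The signs of these 5 genes turned on single libraries. Without lacZ replicate 1, mt:CoI, mt:CoIII and mt:Cyt-b stood at 0.07, 0.10 and 0.14 in KD1, and mt:CoII at 0.11 in KD2. Without lacZ replicate 2, mt:CoI, mt:Cyt-b and mt:ATPase6 stood at -0.12, -0.06 and -0.07 in KD2. Without KD2 replicate 2, mt:CoI, mt:Cyt-b and mt:ATPase6 stood at -0.11, -0.06 and -0.07 in KD2. Leaving out KD1 replicate 1 put mt:ATPase6 at -0.01 in KD1.

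**Figure D4:**
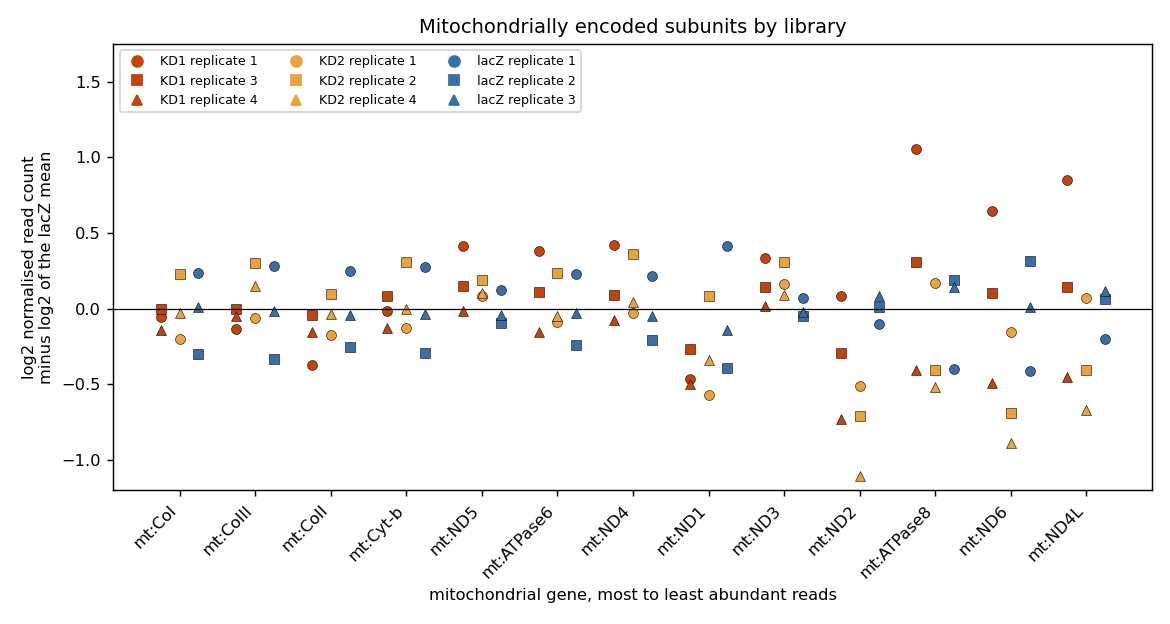
Log2 normalised read count of each mitochondrial gene relative to the lacZ mean, in each of the 9 libraries, ordered from most to least abundant reads. The abundant genes on the left are highest in lacZ replicate 1 and KD2 replicate 2, the low-count genes on the right in KD1 replicate 1, and for mt:ND2 KD2 lies below lacZ.

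Several low-count genes lie beside an abundant gene on the same precursor RNA, so the reads of the low-count gene were also taken as a percentage of the reads of an abundant one within each library. mt:ATPase8, which overlaps mt:ATPase6 by a few bases on the same strand, had 7.0, 5.03 and 3.69% of mt:ATPase6 reads in KD1 and 5.25, 2.81 and 3.18% in KD2, against 2.83, 5.93 and 4.94% in lacZ. mt:ND4L stood at 6.28, 4.85 and 3.6% of mt:ND4 reads in KD1 and 4.99, 2.74 and 2.84% in KD2, against 3.49, 5.63 and 5.23% in lacZ. mt:ND6 stood at 1.48, 0.949 and 0.726% of mt:Cyt-b reads in KD1 and 0.915, 0.466 and 0.507% in KD2, against 0.58, 1.42 and 0.966% in lacZ. In all 3 ratios KD1 replicate 1 and lacZ replicate 2 were highest, and KD2 replicates 2 and 4 were among the lowest with lacZ replicate 1.

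The ratio of mt:ND2 to mt:CoI sorted the libraries in much the same way. It was 1.02, 0.754 and 0.612% in KD1 and 0.743, 0.48 and 0.436% in KD2, against 0.728, 1.15 and 0.969% in lacZ. On this scale KD2 replicate 1 was above lacZ replicate 1, so that KD2 and lacZ overlapped. The part that this shared variation between libraries has in the lower mt:ND2 count of KD2 was not tested.

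**Figure D5:**
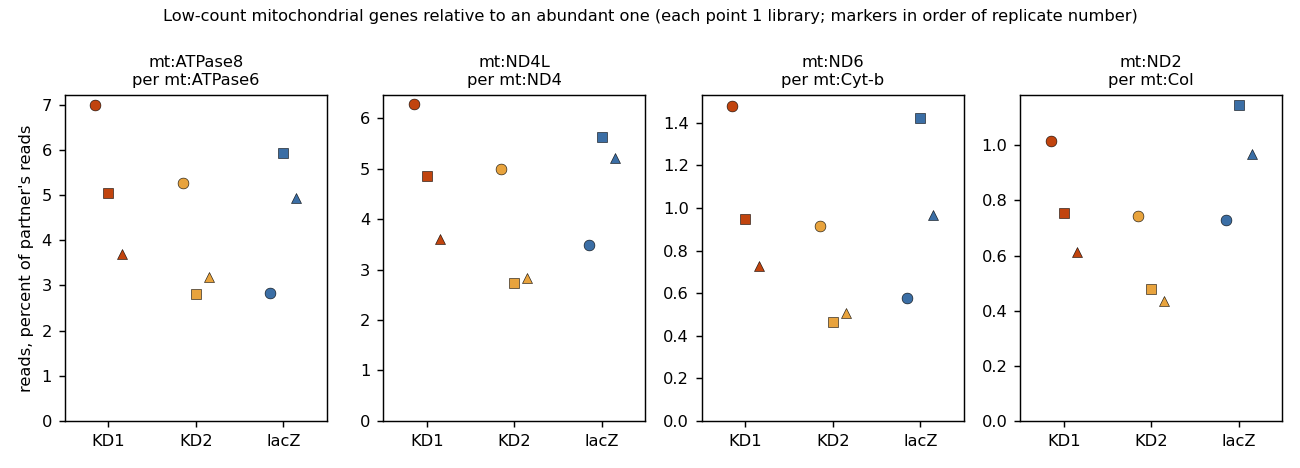
Reads of 4 low-count mitochondrial genes as a percentage of the reads of an abundant mitochondrial gene in the same library, for KD1, KD2 and lacZ from left to right (each point 1 library; circle, square and triangle in order of replicate number). KD1 replicate 1 and lacZ replicate 2 are high in each panel, KD2 replicates 2 and 4 are low, and the groups overlap throughout.

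Summed over genes, the mitochondrial members took 0.928, 0.985 and 0.893% of assigned reads in KD1 and 0.882, 1.14 and 0.975% in KD2, against 1.18, 0.805 and 0.996% in lacZ. The nuclear members took 1.17, 1.19 and 1.14% in KD1 and 1.08, 1.16 and 1.12% in KD2, against 1.21, 1.13 and 1.16% in lacZ. The ratio of mitochondrial to nuclear reads ranged from 0.784 to 0.826 in KD1, from 0.817 to 0.986 in KD2 and from 0.711 to 0.978 in lacZ. The lacZ range thus held nearly all of the knockdown values, with KD2 replicate 2 just above it. In bulk RNA, fewer cells of a type and less RNA per cell cannot be told apart. The mitochondrial ribosomal RNAs, nearly all of them mt:lrRNA, took 0.854 to 1.21% of reads in KD1, 1.07 to 1.53% in KD2 and 0.96 to 1.71% in lacZ, and they were highest in lacZ replicate 1 and KD2 replicate 2 as well.

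Of the 99 genes named by the rule, 23 stayed under 1 CPM. Of these, 21 (all but ND-B8 and ND-MNLL) are named as copies of another respiratory gene, by an L, L1 or L2 after its symbol, and 9 of the 23 had no read in any library. COX4L totalled 70 reads over the 9 libraries and COX7CL 70, while ATPsynepsilonL, the highest, totalled 96. Set beside their paralogs, COX4L averaged 0.515 CPM against 216 CPM for COX4, COX7CL 0.524 CPM against 159 CPM for COX7C, and ATPsynbetaL 0.226 CPM against 1545 CPM for ATPsynbeta. Such copies may share sequence with the main gene, and of a read that maps to a few places only the primary alignment was kept, so their levels are uncertain.

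Beyond the members, 5 subunits with other symbols were tested, of which blw, the alpha subunit of the ATP synthase, was higher in KD2 (0.12 ± 0.05 SE, adjusted p 0.0458), with 0.12 ± 0.05 (SE, adjusted p 0.0602) in KD1 (DESeq2). None of levy, cype, sun and ox passed. Among 12 assembly factors, Scox, a copper chaperone of complex IV, rose in KD1 (0.21 ± 0.07 SE, adjusted p 0.0278) and OXA1L, the insertase of the inner membrane, rose in KD2 (0.25 ± 0.08 SE, adjusted p 0.00951), and no other passed in either comparison (DESeq2). The calls of blw in KD2, Scox in KD1 and OXA1L in KD2 were each lost without lacZ replicate 3, with adjusted p-values of 0.289, 0.169 and 0.0679 (DESeq2). The blw call was lost whichever library was left out, except lacZ replicate 2. It also failed in edgeR (adjusted p 0.0567) and with total-read scaling (0.131, DESeq2). Scox lost its call on leaving out any KD1 or lacZ replicate or KD2 replicate 4, and with total-read scaling (0.0644, DESeq2). OXA1L lost its call without KD2 replicate 1 or 4 or lacZ replicate 2. The replicate block removed each of these calls. These genes were named after their values had been seen, as were the citric acid cycle genes. Of 11 citric acid cycle genes, Ogdh was higher and Idh lower in both comparisons, and Scsalpha1 was lower in KD2. Of all genes tested, 21.2% had an adjusted p under 0.05 in KD1 and 23.6% in KD2 (DESeq2). The same shares stand beside the calls of the other subunits and assembly factors above. Without lacZ replicate 3 the calls of Ogdh and Idh in KD1 and of Scsalpha1 in KD2 were lost. Those of Ogdh and Idh in KD1 were also lost without KD1 replicate 1 or 4. Ogdh in KD1 was lost without lacZ replicate 1 too, and Idh in KD1 without KD1 replicate 3 or lacZ replicate 2. Scsalpha1 in KD2 was also lost without KD2 replicate 1 or lacZ replicate 1. The replicate block removed the calls of Scsalpha1 in KD2 and of Ogdh and Idh in both comparisons. In KD2 it left Ogdh at an adjusted p of 0.111 and Idh at 0.056 (DESeq2).

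Genes for the upkeep and expression of mitochondrial DNA included several that passed the test. Of 16 tested, 6 were higher and 1 lower in KD1, and 5 higher and 1 lower in KD2, beside 9.71% of all genes higher and 11.5% lower in KD1, and 11.3% higher and 12.3% lower in KD2. PolG1, the catalytic subunit of the mitochondrial DNA polymerase, had 528, 517 and 575.5 normalised reads in KD1 and 551, 626 and 616 in KD2, against 427, 482 and 405 in lacZ. Its log2 fold change was 0.30 ± 0.09 (SE, adjusted p 0.00893) in KD1 and 0.44 ± 0.09 (SE, adjusted p 2.36e-05) in KD2 (DESeq2). PolG1 did not pass in KD1 without KD1 replicate 4, lacZ replicate 1 or lacZ replicate 3, nor with the replicate block (adjusted p 0.105, DESeq2). mtSSB, Lon, PNPase and Suv3, named after their values had been seen, were higher in both comparisons, by 0.23 to 0.32, and mTerf3 in KD1. Without lacZ replicate 3, or with the replicate block, none of the 5 passed in KD1 and none of the 4 in KD2. None of the 5 passed in KD1 without KD1 replicate 1 either. scu, a subunit of the mitochondrial RNase P that cuts the precursor RNAs, had 1234, 1270 and 1207 reads in KD1 and 1000, 1194 and 1214 in KD2, against 1760, 1521 and 1628 in lacZ. All knockdown libraries lay below lacZ, and scu fell by 0.40 ± 0.08 (SE, adjusted p 8.29e-06) in KD1 and 0.53 ± 0.08 (SE, adjusted p 1.58e-09) in KD2 (DESeq2), with the call kept under every alternative run.

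Regulators of mitochondrial content moved in both directions. ewg, the fly homolog of the vertebrate transcription factor NRF1, had 359, 367 and 385 normalised reads in KD1 and 429, 410.2 and 413 in KD2, against 550, 572 and 557 in lacZ, and fell by 0.60 ± 0.08 (SE) in KD1 and 0.42 ± 0.08 (SE) in KD2. srl, the fly homolog of the coactivator PGC-1, rose by 0.27 ± 0.07 (SE) in KD1 and 0.36 ± 0.07 (SE) in KD2. clu, a cytosolic RNA-binding protein needed for mitochondrial function, had 4357, 4254 and 4389 reads in KD1 and 4751, 4500 and 4480 in KD2, against 3150, 3735 and 3064 in lacZ, and rose by 0.38 ± 0.07 (SE) in KD1 and 0.46 ± 0.07 (SE) in KD2. These were 3 of the 7 regulators tested, and all had adjusted p-values under 0.05 in both comparisons (DESeq2), beside 21.2% of all genes in KD1 and 23.6% in KD2. The KD1 call of srl was lost with the replicate block (adjusted p 0.0825, DESeq2).

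Of 6 carriers tested, 2 were higher and 1 lower in KD1, and 3 were higher and 0 lower in KD2 (DESeq2, adjusted p under 0.05). Of all genes, 21.2% passed in KD1 and 23.6% in KD2. The carriers that serve ATP synthesis included sesB, the main ADP/ATP translocase, named here after its values had been seen. sesB had 30240, 30090 and 30630 normalised reads in KD1 and 29150, 29350 and 29520 in KD2, against 24240, 25010 and 24350 in lacZ. Knockdown libraries were all above lacZ. sesB rose by 0.31 ± 0.04 (SE, adjusted p 1.05e-15) in KD1 and 0.26 ± 0.04 (SE, adjusted p 2.26e-11) in KD2 (DESeq2), and both calls were kept under every alternative run. Its neighbour Ant2, which encodes a related translocase and overlaps sesB on the same strand, rose by 0.29 ± 0.11 (SE, adjusted p 0.0432) in KD1 and 0.45 ± 0.11 (SE, adjusted p 0.00052) in KD2 (DESeq2), and the counts of overlapping genes are uncertain. The KD1 call of Ant2 was lost in 10 of 17 alternative analyses. The phosphate carrier Mpcp2 was higher in KD2 (0.13 ± 0.05 SE) and Ucp4A lower in KD1 (-0.36 ± 0.12 SE), while porin and Bmcp did not pass. Neither the Mpcp2 call nor the Ucp4A call held without lacZ replicate 1 or 2, or with the replicate block. Of the blood cell markers Hml, Pxn, vkg and Col4a1 rose in both comparisons. The rises were 0.71, 0.18, 0.46 and 0.54 in KD1, and 0.73, 0.29, 0.44 and 0.57 in KD2. Pxn did not pass in KD1 without KD1 replicate 1 or 4 or lacZ replicate 1 or 3. It also failed there with total-read scaling (adjusted p 0.056) and the replicate block (0.15, DESeq2). With the replicate block, vkg passed in neither comparison (adjusted p 0.0958 in KD1 and 0.14 in KD2, DESeq2). The part of a shift in blood cell markers in the values above was not tested.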

How the data were processed

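Polyadenylated RNA was converted to 9 stranded paired-end libraries. The authors aligned the reads to BDGP6 (dm6) with STAR 2.5.1b, dropped reads that map to many loci, kept the primary alignment of the rest and counted them per gene with featureCounts (Subread 1.4.6-p2), and the deposited files hold these raw counts, whole numbers with no normalisation, that sum to between 13040608 and 15931035 per library. The strand setting of the counting is not given in the sources used here.

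Groups and replicate numbers came from the titles. Symbols came from a table of gene names (98.2% of identifiers matched), and positions and exon lengths from a later Ensembl annotation (BDGP6.54) of the same assembly. Genes with a mean CPM above 1 were fitted with DESeq2 1.42.0 (R 4.3.3; Wald test, all 9 libraries, a 3-level group factor, no covariates, Benjamini-Hochberg adjustment over all 7406 genes, independent filtering at alpha 0.1), following the test and thresholds of the study. Normalised read counts use median-of-ratios size factors. TPM was computed from counts and exon length. Intervals are the estimate ± 1.96 SE, and SE, SD and intervals of 3 libraries per group cover the spread between libraries. The edgeR 4.0.16 quasi-likelihood test, TMM factors, total-read scaling, no filter, fits of the compared groups alone, an exon length correction, a replicate block and leaving out each library were run as alternatives.

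Named genes were Hrb98DE and Hrb87F, all mitochondrial members, members past the threshold, in each complex the nuclear member with the most reads and those with the lowest and the highest averaged change, paralog pairs, and genes of the other lists past the threshold. Genes named beyond this rule were chosen after their values were seen. Members and lists were chosen with earlier results of these data known.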

Additional observations from a re-analysis of the deposited data

How the results depend on the processing

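No member passed the threshold in KD1 under any alternative that kept all libraries, and mt:ND2 passed it in KD2 under all of these. Fitting the compared groups alone put 2 members past it in KD2 (mt:ND2 and mt:ND6). At an adjusted p under 0.05, KD1 had 1 member with TMM factors, 3 with total-read scaling, 1 with the compared groups alone and 3 with the exon length correction (0 as reported). KD2 had 11 with the exon length correction (7 as reported). With total-read scaling SdhD, UQCR-C2 and ND-B14.5B also had an adjusted p under 0.05 in KD2, and ATPsynC did not (0.22, DESeq2). The share of all genes called under each alternative is not given here, so these counts cannot be set against it. Replicate numbers are shared in part between groups. Over 6 same-number pairs the correlation of deviations from group means ranged from -0.336 to 0.158 (mean -0.059). Over pairs with different numbers it ranged from -0.32 to 0.327 (mean 0.016). With 3 libraries a group, these values cannot decide whether the numbers pair the libraries. With the replicate block, 1 member kept an adjusted p under 0.05 in KD2 and 1 in both knockdowns averaged (8 as reported), and 0 were past the threshold in the average (1 as reported). With the exon length correction and the replicate block together, the counts were 1 and 2. The median log2 fold change of the nuclear members stayed between -0.029 and 0.008 in KD1 and between -0.091 and -0.036 in KD2 under the alternatives that kept all libraries. The cause of these shifts was not tested.

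Leaving out each library in turn gave 0 to 1 members past the threshold in KD1, 0 to 2 in KD2, 0 to 1 in the average and 0 to 2 for KD1 against KD2. At an adjusted p under 0.05 it gave 0 to 2 in KD1, 1 to 10 in KD2 (1 without lacZ replicate 1, 2 without KD2 replicate 1 and 10 without KD2 replicate 2), 3 to 9 in the average and 0 to 2 for KD1 against KD2. The medians ranged from -0.022 to 0.04 for nuclear members in KD1, -0.087 to -0.014 for nuclear members in KD2, -0.025 to 0.243 for mitochondrial members in KD1, -0.113 to 0.15 for mitochondrial members in KD2, and 0.026 to 0.085 for nuclear members in KD1 against KD2. With 3 libraries a group, the spread between replicates limits what could be seen for the mitochondrial members.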

Other observations

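Some genes of this pathway cannot be read from these counts. ND-MNLL, a small subunit of complex I (X, 7893053 to 7893798, minus strand), had 0 reads in all 9 libraries. All of its exon bases are shared on the same strand with CG45089, which also had 0 reads in all 9. ND-B8, another small subunit, had 1 read in all. The mitochondrial expression genes mtTFB1, SLIRP1 and PolG2 were likewise at 0 in every library. Such empty or nearly empty counts do not by themselves show whether these genes are expressed, and their cause was not tested.

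UQCR-14, a subunit of complex III, has all of its exon bases covered on the opposite strand by CG32576. UQCR-14 had 1872, 1927 and 1584 reads in KD1 and 1751, 1628 and 1490 in KD2, against 1807, 1706 and 1615 in lacZ, and CG32576 had 267, 249 and 224 reads in KD1 and 255, 270 and 257 in KD2, against 316, 239 and 252 in lacZ. Of the 76 members, 28 overlap a gene on the opposite strand and 4 do so over more than 20% of their exon bases.

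The ribosomal RNAs of the mitochondrion differed widely in reads: mt:lrRNA averaged 12160 CPM and mt:srRNA 13.3 CPM. mt:srRNA had 228, 212 and 166 normalised reads in KD1 and 157, 174 and 174 in KD2, against 234, 182 and 250 in lacZ, with a log2 fold change of -0.13 ± 0.14 (SE) in KD1 and -0.40 ± 0.15 (SE) in KD2 and an adjusted p of 0.0321 in KD2 (DESeq2). The adjusted p in KD2 was 0.159 without lacZ replicate 1, 0.158 without KD2 replicate 1, 0.0778 without KD2 replicate 4 and 0.237 without lacZ replicate 3.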
